A study of Homo sapiens with 12 samples.

Results

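Cytosolic ribosomal protein genes encode the protein components of the ribosome, the particle that translates messenger RNA in the cytoplasm. The members were every protein-coding gene named RPL (large subunit) or RPS (small subunit) followed by a number, together with RPLP0, RPLP1, RPLP2 and RPSA, while RPS6 kinases, pseudogenes and Y-linked copies were left out. This rule gave 85 of the 58302 genes in the count tables, of which 53 encode large subunit and 32 small subunit proteins. A filter on the mean count over the libraries (20 or more) kept 80 members among 13454 tested genes. The 5 members that did not pass were RPS9, RPS10, RPS18, RPL3L and RPL10L.

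The study asked how human neural progenitor cells (NPCs) grow and differentiate without the H3K27 demethylases UTX (KDM6A) and JMJD3 (KDM6B), which remove a repressive histone mark. All 12 RNA-seq libraries came from the H1 human embryonic stem cell line, either wild type (WT) or with the catalytic sites of both demethylases deleted by CRISPR/Cas9 and puromycin selection (double knockout, dKO), and the number of dKO clones is not given in the sources used here. NPCs were grown as neural spheres with FGF2 and EGF and sequenced at passage 2 (the passage is taken from the methods) and at passage 4, and passage 2 NPCs were also kept for 28 days without these factors in a differentiation medium with GDNF, BDNF and cAMP. Each of the 6 groups (WT and dKO at passage 2, passage 4 and day 28) held 2 libraries. Nothing states that the 2 libraries of a group came from separate cultures, so p-values measure only the spread between these libraries.

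Most ribosomal proteins are present once in nearly every ribosome, and the genes are among the most highly transcribed in dividing cells. Their messenger RNAs usually begin with a C followed by a run of pyrimidines, the 5′ terminal oligopyrimidine (TOP) tract, through which mTOR signalling and the protein LARP1 control their translation together. Transcription of the set and of ribosome assembly factors is promoted by MYC. Loss of single members such as RPS19, RPS24, RPS26, RPS7 or RPL11 causes Diamond-Blackfan anaemia. Free RPL5 and RPL11 bind MDM2 when ribosome assembly is disturbed. A few members have a second copy elsewhere in the genome (paralogs such as RPL22L1 for RPL22 and RPS27L for RPS27) that can take the place of the canonical protein.

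The starts of a few members are shown because the TOP tract is what most canonical members share and several paralogs lack. Each stretch runs 5′ to 3′ from 8 bases before to 20 bases from the RefSeq transcription start (GRCh38.p14), and capitals mark a C followed by at least 4 pyrimidines that begins within 3 bases of that start.
RPS24 (chr10:78033855-78033882, plus strand): tcgtggttCTCTTTTCCTCCTTggctgt
RPS7 (chr2:3575252-3575279, plus strand): ccctcCTCCTCgcgctgtttccgcctct
RPL39 (chrX:119791611-119791638, minus strand): gccagCTTCCCTCCTCTTCCTTTCTCCg
RPL22 (chr1:6199576-6199603, minus strand): ctcacCTCCCTTTCTaactccgctgccg
RPL22L1 (chr3:170870176-170870203, minus strand): gtagcttCCTCTCTgctctcgcggccga
RPS27 (chr1:153990754-153990781, plus strand): ctttcgCTCCTTTCCggcggtgacgacc
RPS27L (chr15:63157458-63157485, minus strand): tgccgagcgcagatcgcttgcagcttgc
RPL26 (chr17:8383174-8383201, minus strand): gtgtagttCTCTTCCCTTTTgcggccat
RPL26L1 (chr5:172958721-172958748, plus strand): caggggtcggcgaacgaaacgcggagct
RPL36A (chrX:101391003-101391030, plus strand): cgcggtttCTTTCTTTCCgcgccgatag
RPL36AL (chr14:49620607-49620634, minus strand): ttccctttcctgttaggcgagagctgcg
Starts were given for 68 of the 85 members. Of these, 48 (70.6%) had a tract, against 13.1% of 27305 genes in the same table. The tract was present in 47 of 62 canonical members (75.8%) and, among the 6 paralogs with a start, in RPL22L1 alone. With the C required at the start base itself, 42 canonical members (67.7%) and 1 paralog (16.7%) had it. These counts depend on the definition, as RPL36AL starts within a run of pyrimidines that did not meet it. Mitochondrial ribosomal protein genes, whose products work inside mitochondria, had it in 8 of 69 (11.6%). The letters CCGGAA, the core of ETS factor sites, were found on either strand of the 300 bases around the start in 54.4% of the members, in 56.5% of the mitochondrial set and in 17.6% of all genes. AAGATGGC, a YY1-type motif, was found in 10.3%, 29% and 3.03% in that order.

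Library depth ran from 756942 to 10601172 counts assigned to genes, with the 4 passage 2 libraries lowest (756942 to 1438807). These 4 libraries also stood apart in how ribosomal protein reads were assigned. For every 100 counts on members, 8.43 to 9.95 counts fell on their 1599 annotated pseudogenes in passage 2 libraries, and 4.48 to 5.52 in the other 8. Mitochondrially encoded genes took 1.66% to 1.79% of the counts at passage 2 and 3.70% to 5.18% elsewhere. How reads matching both a gene and its copies were assigned is not given in the sources used here. Every comparison of passage 2 NPCs with passage 4 or day 28 therefore runs across this difference, and the part of passage or differentiation in it cannot be told apart from the part of the libraries. Comparisons of dKO with WT at 1 stage do not cross it. Yet pseudogene counts per 100 member counts were also higher in dKO than in WT at each stage, by less. At passage 2 they were 9.38 and 9.95 in dKO, against 8.99 and 8.43 in WT. At passage 4 they were 5.14 and 5.52 against 4.48 and 4.815, and at day 28 they were 4.78 and 5.07 against 4.55 and 4.48. KDM6A had 60.5 and 53.6 CPM (a gene's counts over the TMM-scaled library total) in passage 2 NPCs of WT, against 39.2 and 38.3 CPM in dKO, and KDM6B 154.3 and 181.4 CPM in WT, against 152.3 and 156.7 CPM in dKO. Since only catalytic sites were deleted, counts over the whole gene do not check the labels. The TruSeq kit used does not mark strand, and the gene bodies of 38 members overlap another protein-coding or long non-coding gene. For 34 of them the other gene lies on the opposite strand. As no strand setting of the counting is given, reads from exon bases that both genes share cannot be told apart. The overlaps were taken over whole gene bodies with introns, and how many of them fall on exons was not measured.

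**Figure D1:**
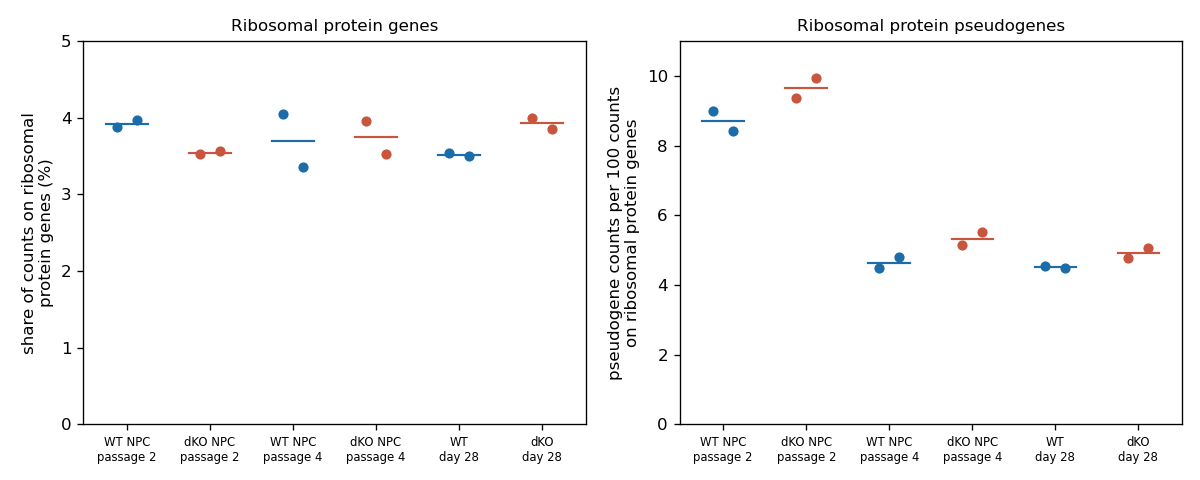
Share of each library's counts on the 85 ribosomal protein genes (left, %) and counts on their pseudogenes per 100 member counts (right), by group. Points are libraries and lines are group means. Shares lie between 3.36% and 4.05%, and pseudogene counts are highest in the 4 passage 2 libraries.

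The members together took 3.36% to 4.05% of the counts in every library, and the order of the genotypes differed between stages. At passage 2, the share was 3.87% and 3.97% in WT and 3.53% and 3.56% in dKO NPCs. At passage 4, it was 4.05% and 3.36% in WT and 3.96% and 3.53% in dKO NPCs, so that the genotypes overlapped. At day 28, it was 3.54% and 3.50% in WT and 3.995% and 3.86% in dKO cells. The dKO libraries thus lay below WT at passage 2 and above WT at day 28 without overlap. With 2 libraries against 2, the smallest p an exact two-sided permutation test can give is 0.333, and none was used for the share. In WT at passage 4, where the libraries differed most, replicate 1 had the higher level of 74 of the 85 members. The ratio of large to small subunit counts stayed between 1.87 and 2.07 in all 12 libraries.

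Single members spanned a wide range of levels, although most of the canonical proteins are made in nearly equal numbers. Per kilobase of annotated exon, RPS12 (a mean of 521.4 RPKM, CPM per kilobase), RPS27 (393.9), RPS2 (381.3) and RPL7A (380.8) were among the 5 highest members. Divided by coding length instead, these 4 ranked 46, 8, 31 and 30 of 85, so the order at the top depends on the length used. The lowest levels were those of RPL3L, RPS9, RPS18, RPL10L and RPS10, from 0.054 to 0.48 RPKM, and these 5 were also the lowest by coding length. RPL3L, the striated muscle paralog of RPL3, had no count in 8 libraries, which in WT day 28 replicate 2 allows at most 0.297 CPM. RPL10L, a testis paralog of RPL10, had counts in 3 libraries and at most 1.29 CPM. RPS9, RPS10 and RPS18 encode core proteins, yet none exceeded 2.57 CPM in any library. For RPS18, between 132 and 364 CPM lay on its annotated pseudogenes instead. The pseudogenes of RPS9 and RPS10 held at most 2.94 and 6.43 CPM, and why so few of their reads were counted was not tested. As all 3 genes encode core proteins, their near absence from the counts is not read here as low expression.

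**Figure D2:**
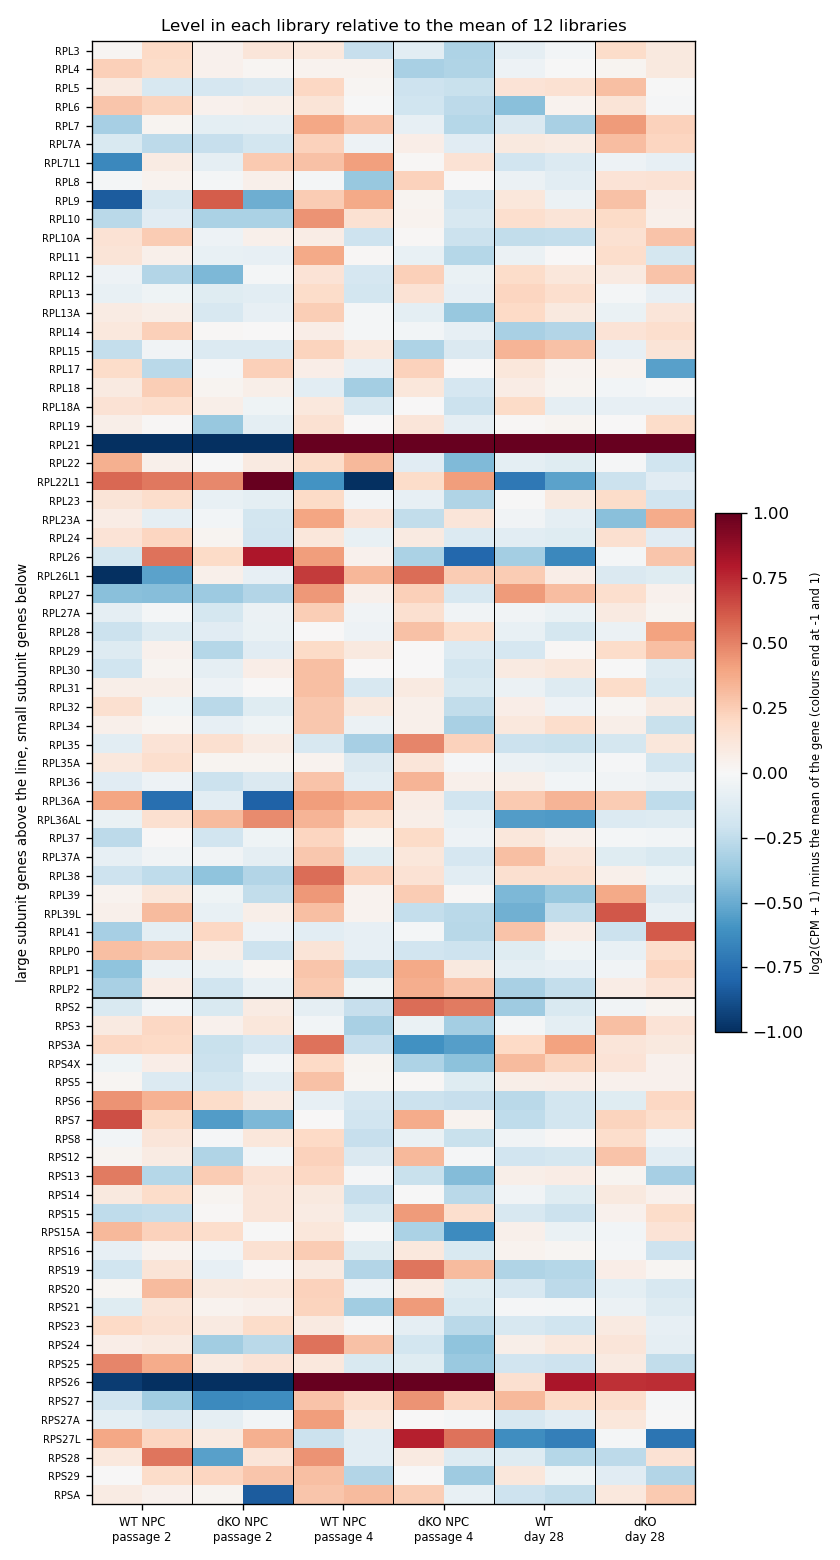
Level of tested members in the 12 libraries, as log2(CPM + 1) minus the gene's mean over all libraries, with red above and blue below the mean and colours ending at -1 and 1. Most rows are pale, while RPL21 and RPS26 are low in the 4 passage 2 libraries.

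In passage 2 NPCs, deletion of both demethylases was accompanied by a change in 1 member. RPS7, a small subunit protein that also binds MDM2, was counted at 491 and 358 CPM in WT and at 212 and 229 CPM in dKO NPCs, and its log2 fold change was -0.93 ± 0.15 (SE, edgeR adjusted p = 0.0035). No dKO library reached the lower WT library. Without WT replicate 1 the log2 fold change of RPS7 was -0.696 (edgeR adjusted p = 0.0799) and without dKO replicate 2 it was -0.988 (edgeR adjusted p = 0.0664). The pseudogenes of RPS7 were higher in dKO (54.0 and 66.2 CPM) than in WT (39.9 and 36.7 CPM), and with these counts added the log2 fold change was -0.71 (edgeR adjusted p = 0.0149). Thus 0 of 80 members rose and 1 fell at an edgeR adjusted p below 0.05, against 1.78% and 0.989% of all tested genes. DESeq2 gave the same 0 and 1, and 3 members were higher and 7 lower at an unadjusted edgeR p below 0.05. By the study's rule, which also asks for a fold above 2 at an unadjusted p below 0.05, 0 and 0 were called, against 2.59% and 1.84%. The median log2 fold change of the members was -0.08, with 54 of 80 below 0, and that of all genes was 0.00.

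In passage 4 NPCs, 7 members rose and 16 fell in dKO (8.75% and 20% of the 80), where 25.3% and 24.3% of all tested genes did. Changes were small for most. The interquartile range of the members lay between log2 fold changes of -0.32 and 0.10, and that of all genes between -0.45 and 0.50. Among strongly counted genes (mean of 1000 or more), 16.2% rose and 42.8% fell. Under the study's rule 1 member rose (RPL22L1) and 0 fell, against 11.1% and 11.2% of all genes. The median over members was -0.13, and -0.01 when GC content and length were corrected for, which itself moved the median of all genes from 0.02 to 0.11. Leaving out WT replicate 1 gave a median of 0.02 with 7 members lower, and leaving out dKO replicate 2 gave 6 lower. The number higher was 4 without WT replicate 2 or without dKO replicate 1.

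The largest rise at passage 4 was that of RPL22L1, the paralog of RPL22. It was counted at 8.56 and 6.07 CPM in WT and at 15.5 and 18.4 CPM in dKO NPCs, with a log2 fold change of 1.23 ± 0.26 (SE, edgeR adjusted p = 0.00105). RPL22, whose protein is known to repress RPL22L1, went the other way, from 465 and 513 CPM in WT to 378 and 301 CPM in dKO, with a log2 fold change of -0.53 ± 0.13 (SE, edgeR adjusted p = 0.00258). As a share of RPL22, RPL22L1 counts were 1.84% and 1.18% in WT and 4.09% and 6.09% in dKO. Without dKO replicate 2 the log2 fold change of RPL22 was -0.373 and no longer passed. Against passage 2, the mean levels of both genes were lower at day 28 in WT (RPL22 475 to 380 CPM, RPL22L1 20.2 to 8.41 CPM). The same held in dKO at day 28 (422 to 382 and 23.9 to 11.9 CPM) and at passage 4 (422 to 340 and 23.9 to 16.9 CPM). In WT at passage 4 they went opposite ways (475 to 489 and 20.2 to 7.32 CPM). A link between the genes was not tested.

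RPS27L, the RPS27 paralog, rose as well. Its level was 64.2 and 69.3 CPM in WT, against 128 and 109 CPM in dKO NPCs, and the log2 fold change was 0.83 ± 0.18 (SE, edgeR adjusted p = 0.0016). RPS27 itself had 480 and 442 CPM in WT, against 537 and 458 CPM in dKO and was not called. RPS27L shares bases with LACTB on the opposite strand. CDKN1A, a cell cycle inhibitor, rose from 91.2 and 98.4 CPM to 247 and 220 CPM (log2 fold change 1.296) and MDM2 from 71.1 and 86.8 CPM to 168 and 204 CPM (1.23), the latter chosen after its values were seen.

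RPS2, a protein near the messenger RNA entry site of the small subunit, rose from 841 and 762 CPM to 1320 and 1284 CPM, with a log2 fold change of 0.70 ± 0.11 (SE, edgeR adjusted p = 6.44e-05). RPL35 (log2 fold change 0.61) and RPS19 (0.52), a protein needed for maturation of the small subunit, rose less, and RPS15 and RPL8 rose by 0.34 and 0.31.

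Among the members that fell, RPS24 had the smallest p. It was counted at 1168 and 979.5 CPM in WT and at 703 and 606 CPM in dKO, with a log2 fold change of -0.71 ± 0.11 (SE, edgeR adjusted p = 7.87e-05). RPS3A ranged widely within WT (1085 and 637 CPM) but both dKO libraries were lower (489 and 510 CPM), with a log2 fold change of -0.78 ± 0.19 (SE, edgeR adjusted p = 0.00435), which did not pass with the compared samples only (edgeR adjusted p = 0.189). RPL26, a large subunit protein, was counted at 62.5 and 48.1 CPM in WT and at 37.1 and 26.6 CPM in dKO (-0.78 ± 0.25, SE, edgeR adjusted p = 0.0202), and this call was lost with the GC and length correction (edgeR adjusted p = 0.0886). RPS15A, RPL7, RPS4X, RPL15, RPL11, RPL38, RPL10, RPL4, RPL13A, RPL5 and RPS27A also fell, by 0.28 to 0.52 on the log2 scale. RPL5 (-0.33) and RPL11 (-0.38), the pair that binds MDM2, were both among them.

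**Figure D3:**
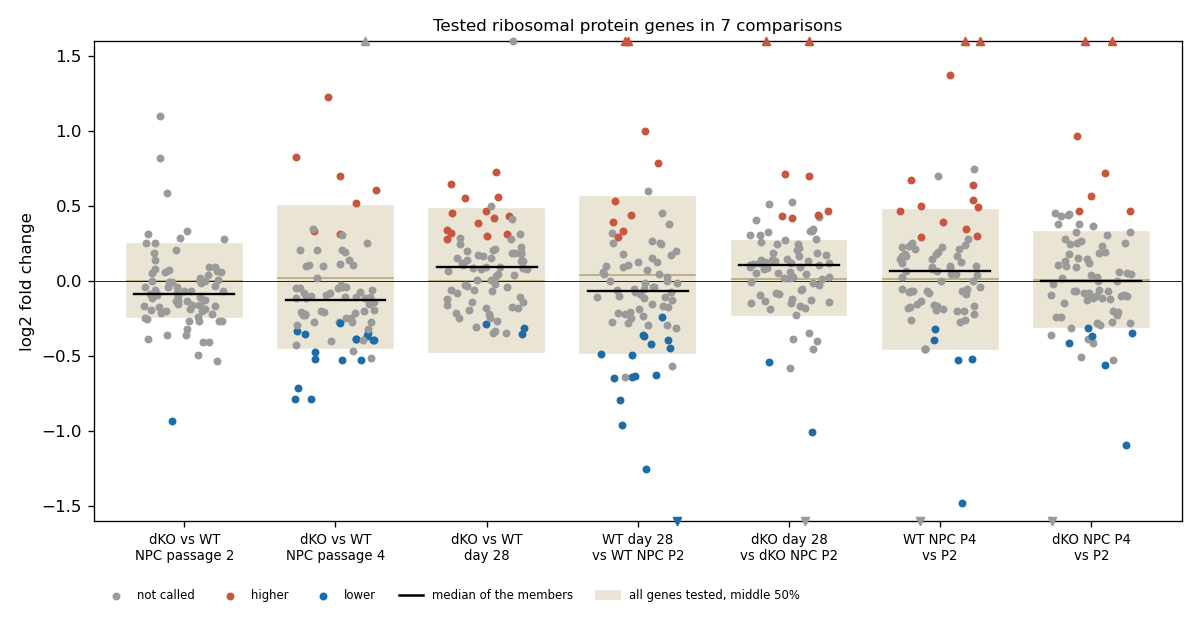
Log2 fold changes of the 80 tested members in 7 comparisons, with called members in red (higher) and blue (lower) and triangles for values beyond the axis. Black lines are member medians and shaded boxes the interquartile range of all 13454 tested genes. Member medians lie within 0.13 of 0 in each comparison.

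At day 28, the balance of calls was the other way. In dKO cells 14 members rose and 3 fell relative to WT (17.5% and 3.75% of the 80), against 27.5% and 26.7% of all tested genes. The member median was 0.09 and the interquartile range -0.11 to 0.25. Among strongly counted genes 28.7% rose and 34.9% fell. By the study's rule 0 members rose and 0 fell, against 12.4% and 11.7%. With the GC and length correction the member median was 0.01 and 11 members were called lower in place of 3. The correction also moved the median of all genes from 0.003 to -0.055. All genes called lower went from 3592 to 4055 of 13454. Without WT replicate 1 there were 5 higher and 0 lower, without WT replicate 2 there were 6 higher, and without dKO replicate 1 or 2 there were 6 or 5 lower.

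RPL7, a large subunit protein, was counted at 622 and 549 CPM in WT and at 920 and 805 CPM in dKO cells, with a log2 fold change of 0.56 ± 0.12 (SE, edgeR adjusted p = 0.00109). RPL14 rose from 380 and 388 CPM to 522 and 532 CPM (0.46 ± 0.09, SE, edgeR adjusted p = 0.000556). RPL10A rose from 377 and 378 CPM to 498 and 546 CPM (0.47 ± 0.11, SE, edgeR adjusted p = 0.00262). RPS7, low in dKO NPCs at passage 2, was here higher in dKO, at 366 and 354 CPM against 263 and 276 CPM in WT (0.42 ± 0.14, SE, edgeR adjusted p = 0.0169).

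Of the 4 members with the largest rises at day 28, RPL7 kept its call in every alternative fit and the other 3 did not. RPL39L, the testis-enriched paralog of RPL39, had 5.91 and 7.14 CPM in WT, against 13.8 and 8.18 CPM in dKO, and its log2 fold change of 0.73 fell to 0.33 (edgeR adjusted p = 0.333) without dKO replicate 1. RPL39 had 190 and 199 CPM in WT, against 337 and 235 CPM in dKO, and its log2 fold change of 0.55 was 0.28 (edgeR adjusted p = 0.0667) without the same library. RPL26 had 36.5 and 29.3 CPM in WT, against 45.9 and 56.7 CPM in dKO (0.65), which did not pass with pseudogene counts added (0.42, edgeR adjusted p = 0.0785).

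The remaining rises at day 28 were those of RPL36AL (0.43), the stalk protein gene RPLP2 (0.39), RPS19, RPL29, RPL28, RPS15 and RPS6, the target of S6 kinase. The falls included RPL37A (-0.35) and RPL15 (-0.29), each lost without WT replicate 1. Set side by side, RPS15 and RPS19 rose in dKO at both passage 4 and day 28, RPL15 fell at both, and RPL26 and RPL7 fell at passage 4 and rose at day 28. Without the 4 passage 2 libraries in the fit, 1 rather than 3 members was called lower at day 28.

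**Figure D4:**
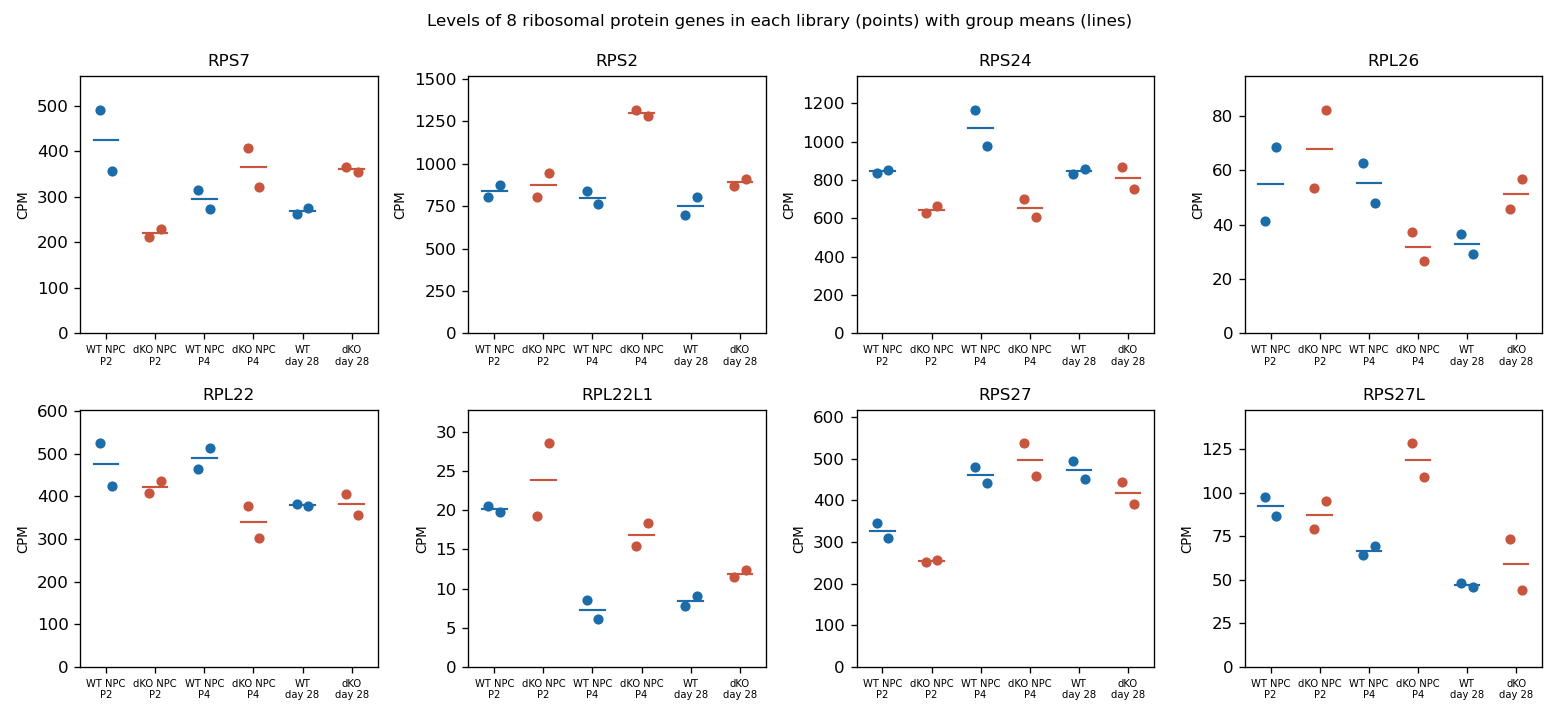
Level in CPM of 8 ribosomal protein genes in each library, with WT in blue and dKO in red and lines for group means. RPS7 is lowest in the 2 dKO passage 2 libraries, RPS2 and RPS27L are highest in dKO at passage 4, and RPL22L1 is lowest in WT at passage 4 and day 28.

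Differentiation of WT cells was followed by 9 higher and 16 lower members relative to passage 2 NPCs (11.2% and 20% of the 80), against 23.2% and 22.9% of all genes. The study's rule called 3 higher and 2 lower (background 12.9% and 11.5%). The member median was -0.07, against 0.04 for all genes. It changed sign with the GC and length correction (0.03) and with the wider gene filter (0.04). The all-gene median moved as well, to 0.10 and 0.16 in that order, and the member median lay below it each time. Leading the rises was RPL21, from 9.003 and 2.94 CPM to 199 and 210 CPM (log2 fold change 5.29 ± 0.40, SE, edgeR adjusted p = 9.52e-07). RPS26 went from 11.6 and 4.41 CPM to 26.1 and 41.6 CPM (2.26 ± 0.39, SE, edgeR adjusted p = 0.00026). Both genes were low in all 4 passage 2 libraries and in no other. At passage 2 the pseudogenes of RPL21 had 132 and 143 CPM in WT, against 89.5 and 87.1 CPM in dKO, and in the other 8 libraries 34.4 to 71.9 CPM. With pseudogene counts added to RPL21, the difference at day 28 shrank to 0.77 ± 0.12 (SE, edgeR adjusted p = 7.73e-05). For RPS26 it stayed at 1.99 ± 0.40 (SE, edgeR adjusted p = 0.00129).

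Among the falls on WT differentiation, RPL22L1 went from 20.6 and 19.8 CPM to 7.80 and 9.02 CPM (log2 fold change -1.25 ± 0.28, SE, edgeR adjusted p = 0.00183). RPS27L went from 97.8 and 86.7 CPM to 48.1 and 46.1 CPM (-0.96 ± 0.21, SE, edgeR adjusted p = 0.00161). RPS6 (-0.63), RPS25 (-0.63), RPS7 (-0.65) and RPL36AL (-0.64) also fell. RPL26 fell by 0.79 on the log2 scale but not with pseudogene counts added (-0.51, edgeR adjusted p = 0.0747).

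Because of the passage 2 libraries, day 28 cells were also set beside passage 4 NPCs, although these were not the cells that were differentiated. The WT passage 4 libraries were already rich in markers of differentiated cells. Their 8 neuron markers summed to 4118 to 4667 CPM, against 3478 to 3482 CPM in WT day 28 cells. The 5 astrocyte markers summed to 1809 to 1963 CPM, against 296.2 to 301.3 CPM, although 1 of the 4 tested was called higher at day 28 and 2 lower. In WT, 0 members rose and 12 fell, against 21.2% and 20.4% of all genes, and edgeR gave an unadjusted p below 0.05 for 1 higher member, RPL18. RPL36AL fell most, from 83.9 and 75.4 CPM to 44.7 and 44.4 CPM (-0.84 ± 0.12, SE, edgeR adjusted p = 5.08e-05), followed by RPL26, RPL39, RPL7, RPL7L1, RPS27L (-0.51), RPS27A, RPLP2, RPL22, RPS24, RPL14 and RPS20. RPL21 (0.09), RPL27 (0.12) and RPS27 (0.03), all higher against passage 2, were not called, and RPL22L1 had a log2 fold change of 0.23 (edgeR adjusted p = 0.522). In dKO, 8 members rose and 6 fell (background 11.7% and 9.56%). RPS27L had the largest of these changes (-1.02 ± 0.18, SE, edgeR adjusted p = 0.00121), from 128 and 109 CPM to 73.3 and 44.5 CPM, and RPS2 fell by 0.55.

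In dKO cells at day 28 against dKO NPCs at passage 2, 8 members rose and 2 fell (background 4.31% and 5.25%), and 2 and 2 by the study's rule (background 4.01% and 3.14%). RPL21 (3.85), RPS26 (2.96), RPS27 (0.71) and RPS7 (0.70) rose most. RPS27 and RPS7 did not pass with pseudogene counts added (log2 fold changes 0.14 and 0.47, edgeR adjusted p = 0.526 and 0.0509). RPL22L1 fell by 1.00 on the log2 scale, from 19.2 and 28.6 CPM to 11.5 and 12.4 CPM, and RPL36AL by 0.54. Without dKO passage 2 replicate 2, RPL22L1 had a log2 fold change of -0.687 (edgeR adjusted p = 0.321) and RPL36AL of -0.46 (edgeR adjusted p = 0.183). RPL36AL did not pass without replicate 1 either (-0.611, edgeR adjusted p = 0.0514), and neither gene passed with the compared samples only or against passage 4 NPCs. Between passages 2 and 4, WT NPCs had 13 members higher and 6 lower (background 19% and 19.1%) and dKO NPCs 7 higher and 6 lower (background 8.35% and 11.2%). By the study's rule these were 3 and 1 in WT (background 10.3% and 9.49%) and 2 and 1 in dKO (background 4.61% and 5.22%). RPL21 and RPS26 led in both genotypes. In WT, RPL26L1 rose by 1.38 (from 6 and 19 counts at passage 2) and RPL22L1 fell by 1.48 on the log2 scale. In dKO, RPS27 rose from 253 and 256 CPM to 537 and 458 CPM, and RPS7 from 212 and 229 CPM to 407 and 322 CPM. With pseudogene counts added, RPS27 went from 462 and 469 CPM to 666 and 582 CPM. RPS7 then went from 266 and 295 CPM to 437 and 347 CPM. RPS2 (0.57) and RPS19 (0.47) rose less, and RPL26 fell by 1.09 on the log2 scale.

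The difference between genotypes in these changes was tested directly by interaction terms. For differentiation, 8 members had a larger log2 fold change in dKO and 1 in WT (background 15.7% and 14.4%), and the median over members was 0.18. The study's rule called 1 and 1 (background 12% and 11.1%). RPS7 stood first, falling by 0.65 in WT and rising by 0.70 in dKO on the log2 scale, a difference of 1.35 ± 0.21 (SE, edgeR adjusted p = 0.000128). For passage, 4 members had a larger change in dKO and 2 in WT (background 11.2% and 12%; 1 and 1 by the study's rule, background 9.72% and 9.57%), again led by RPS7 (1.24 ± 0.21, SE, edgeR adjusted p = 0.000429). With pseudogene counts added these 2 differences of RPS7 were 1.14 (edgeR adjusted p = 0.000413) and 1.01 (edgeR adjusted p = 0.00169). RPS2 differed by 0.64 between genotypes over the passages, which did not pass without dKO passage 2 replicate 1 (0.53, edgeR adjusted p = 0.052). RPS27L differed by 0.89, which did not pass in 7 of the 8 fits that left out 1 library. Both interaction terms rest on the passage 2 libraries.

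Of the other paralogs, RPL36AL exceeded its partner RPL36A in every library by gene counts alone, with 44.4 to 92.0 CPM against 2.79 to 7.90 CPM. RPL36A overlaps the read-through gene RPL36A-HNRNPH2. Pseudogenes were matched to genes by symbol, which gave 52 to RPL36A and 0 to RPL36AL, so adding their counts could only raise RPL36A. Once pseudogene counts were added, RPL36A lay above RPL36AL in each passage 2 library (89.6 to 118.3 CPM, against 63.0 to 92.0 CPM). The order was also reversed in WT at day 28 (replicate 1: 48.2 against 44.7 CPM, replicate 2: 49.0 against 44.4 CPM). RPL36AL stayed higher in dKO at day 28 and in both genotypes at passage 4. Which gene is higher thus depends on these counts and on their assignment by symbol. Which of the 2 genes such reads come from was not tested. RPL26L1 was counted at 18.7% and 20.4% of RPL26 in WT and at 40.3% and 23.7% in dKO NPCs at passage 2, at 54.7% and 54.7% in WT and at 83.2% and 93.6% in dKO NPCs at passage 4, and at 68% and 74% in WT and at 40.6% and 33.6% in dKO cells at day 28. RPL7L1, a ribosome assembly factor rather than a ribosome component, lay between 84.9 and 177 CPM and was not called between genotypes at any stage, except at passage 4 with the compared samples only (log2 fold change -0.28, edgeR adjusted p = 0.0153) and without the passage 2 libraries (-0.30, edgeR adjusted p = 0.0336). RPL39L stayed between 2.31% and 4.13% of RPL39 in the 12 libraries.

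Genes for making and using ribosomes were set beside the members. Of 57 tested ribosome biogenesis genes, which encode nucleolar processing factors and RNA polymerase I subunits, 0 were called by edgeR at passage 2 (2 higher and 0 lower at an unadjusted p below 0.05), 19 rose and 0 fell in dKO at passage 4 (26 and 3 unadjusted), and 30 rose and 4 fell at day 28. These were 33.3% and 0% of the list at passage 4, against 25.3% and 24.3% of all genes, and 52.6% and 7.02% at day 28, against 27.5% and 26.7%. Their median log2 fold changes were 0.09, 0.31 and 0.38 in that order. RRS1, needed for large subunit assembly, rose by 1.34 at passage 4 and by 1.22 at day 28 on the log2 scale. NOB1, which trims the small subunit RNA, rose by 1.01 at passage 4, and UTP20, a small subunit processing factor, by 1.66 at day 28. SBDS (-0.83) and BOP1 (-0.69), both large subunit maturation factors, fell at day 28. In WT day 28 cells 2 of the 57 rose and 24 fell against passage 2 NPCs (background 23.2% and 22.9%), and 2 rose and 9 fell against passage 4 NPCs (background 21.2% and 20.4%). In dKO day 28 cells 1 rose and 0 fell against passage 2 (background 4.31% and 5.25%), and 2 rose and 4 fell against passage 4 (background 11.7% and 9.56%). From passage 2 to passage 4, 2 rose and 16 fell in WT (background 19% and 19.1%), and 3 rose and 1 fell in dKO (background 8.35% and 11.2%).

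The all-gene shares for the lists that follow were again 25.3% higher and 24.3% lower at passage 4, and 27.5% and 26.7% at day 28. Of 38 tested translation factors, 9 rose and 8 fell at passage 4 (23.7% and 21.1%) and 16 rose and 5 fell at day 28 (42.1% and 13.2%). EEF1A2, the neuronal elongation factor, fell in dKO by 2.48 and 3.03 on the log2 scale at these stages, while EIF4A1 rose by 1.13 at passage 4 and PABPC1, itself a TOP messenger RNA, by 1.14 at day 28. Of 69 mitochondrial ribosomal protein genes, 12 rose and 1 fell at passage 4 (17.4% and 1.45%) and 13 rose and 7 fell at day 28 (18.8% and 10.1%). Of 15 snoRNA host genes without a protein product, 6 rose and 2 fell at passage 4 (40% and 13.3%), led by SNHG3 (1.63), and 2 rose and 3 fell at day 28 (13.3% and 20%).

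Of 20 tested genes of the growth control of ribosomes, 6 rose and 3 fell at passage 4 (30% and 15%) and 8 rose and 2 fell at day 28 (40% and 10%). MYC was counted at 9.87 and 11.1 CPM in WT and at 24.7 and 29.2 CPM in dKO at passage 4, and at 5.79 and 4.96 CPM in WT and at 9.79 and 19.2 CPM in dKO at day 28. MYCN rose at day 28 (log2 fold change 1.61), where CDKN1A had a log2 fold change of 0.05 (edgeR adjusted p = 0.766).

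Marker genes of cell types differed between the compared groups. The summed level of 6 proliferation markers, all counted in every group, was 393.4 to 413 CPM in WT day 28 cells and 1338 to 1627 CPM in dKO day 28 cells, and that of 8 neuron markers was 3478 to 3482 CPM and 638.6 to 1192 CPM. At passage 4, the neuron markers summed to 4118 to 4667 CPM in WT, more than in WT day 28 cells, and to 921.1 to 948.3 CPM in dKO NPCs, and 8 neural crest and mesenchymal markers to 152.3 to 162.9 and 903.7 to 917.4 CPM. The 5 astrocyte markers summed to 296.2 to 301.3 CPM in WT and 23.2 to 24.8 CPM in dKO cells at day 28. They summed to 1809 to 1963 CPM in WT and 27.7 to 35.0 CPM in dKO NPCs at passage 4. There the proliferation markers were lower in dKO, at 1013 to 1067 CPM against 1461 to 1646 CPM in WT, and 4 of the 6 fell. Of 4 pluripotent cell markers, POU5F1 and NANOG were at 0 in every group, while LIN28A, also made in early neural progenitors, and DPPA4 were counted. Their sum was 113.1 to 128.6 CPM in WT and 89.2 to 104.3 CPM in dKO at passage 2, 1.27 to 1.65 and 33.9 to 37.2 CPM at passage 4, and 0.595 to 0.946 and 45.6 to 85.0 CPM at day 28. LIN28A, the tested marker of this list, rose in dKO by 5.43 at passage 4 and by 6.26 at day 28 on the log2 scale. In such bulk libraries fewer cells of a type and less RNA per cell cannot be told apart, and the part of these markers in the ribosomal protein changes was not tested.

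Over the 12 libraries RPL27A followed the mean profile of the members most closely (Pearson r = 0.98, the profile including it) and RPL22L1 least (r = -0.33). The 10 other genes with the most similar profile were DLST, TIMM10, EIF3K, CALCOCO2, ANAPC11, PLEKHB1, MRPS18A, CHTOP, PBLD and TMEM106C, with r from 0.803 to 0.735. These values are descriptions over libraries that share depth and groups.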

How the data were processed

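The authors sequenced TruSeq RNA libraries and deposited 1 table of raw counts per library, whole read numbers per Ensembl gene, with HISAT2 2.0.4, SAMtools 1.3.1, HTSeq 0.6.0, DESeq 1.18.1 and hg38 named in the submitters' processing notes. The annotation release, the strand setting and the handling of reads with several matches are not given in the sources used here. Symbols, positions and lengths were taken from GENCODE v44, which matched 57532 of 58302 identifiers (98.68%), and start sequences from RefSeq (GRCh38.p14).

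The 12 libraries were fitted together in edgeR 4.0.16 (R 4.3.3) with TMM scaling, 6 group means and robust quasi-likelihood tests on genes averaging 20 counts or more. Genes were called at a Benjamini-Hochberg adjusted p below 0.05 over all 13454 genes, and CPM values are counts over the TMM-scaled library totals. A floor of 3 counts corresponded to 2.09 to 3.86 CPM in passage 2 libraries and 0.297 to 0.987 CPM elsewhere, for counting error only. The study's own rule (unadjusted p below 0.05 and a fold above 2) was run as an alternative, as were DESeq2 1.42.0, other filters and scalings, a correction for GC content and length, fits on the compared samples only, a replicate block, and fits without each library. Adding pseudogene counts, leaving out the passage 2 libraries and comparing with passage 4 in place of passage 2 were chosen after seeing the data. In no replicate pair did counts agree within sampling noise. Counts over the members and lists include every gene, but single values of a few genes are not reported here. The members and gene lists were chosen with earlier results of these data known. Named members were the 4 largest called changes in each direction of each comparison, the paralog pairs, the 5 highest and lowest levels per length, the 2 largest called changes of each described list, the 10 most similar profiles and the targeted genes.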

Additional observations from a re-analysis of the deposited data

Results flagged for a closer look

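Tests of the difference between the dKO and WT log2 fold changes passed for 9 members over differentiation and 6 over passage, and all rest on the 4 passage 2 libraries. These were 11.2% and 7.5% of the 80 tested members, a smaller share than the 30.1% and 23.2% of all tested genes. Over differentiation (edgeR interaction term), the difference was 1.35 for RPS7, 0.772 for RPL39, 0.668 for RPL10A, 0.627 for RPL14, 0.543 for RPS6, 0.516 for RPL7, 0.491 for RPLP0 and 0.48 for RPL29, all with the larger value in dKO, and -1.12 for RPL26L1. Over passage, it was 1.24 for RPS7, 0.895 for RPS27L, 0.644 for RPS2, 0.47 for RPS27, -0.562 for RPL7 and -0.605 for RPL36AL. With pseudogene counts added to each gene, the difference of RPS27 over passage was 0.307 (edgeR adjusted p = 0.198).

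Of 15 alternative fits of each difference over differentiation, 0 lost the call of RPS7 or RPL10A, 1 that of RPL14 (the GC and length correction), 6 that of RPL39, 7 that of RPL7 and 5 that of RPL26L1. Those of RPL39 were the GC and length correction and 5 fits without 1 library, those of RPL26L1 were DESeq2 and 4 fits without 1 library. Over passage, 0 of 15 lost the call of RPS7, 1 that of RPS2, 7 those of RPS27L and of RPL7, 9 that of RPL36AL and 11 that of RPS27. The single differences of RPS6, RPLP0 and RPL29 were not refitted.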

How the results depend on the processing

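Counts are given as members higher and lower among those tested, and causes were not tested. The number of all genes called also changed between these fits, so a moved member count alone does not set the members apart. By the study's rule there were 0 lower at passage 2, 1 and 0 at passage 4, 0 and 0 at day 28, 3 and 2 for WT differentiation, 2 higher for dKO differentiation, 3 and 1 for WT passage, 2 and 1 for dKO passage, 1 higher for the differentiation interaction, and 1 and 1 for the passage interaction. With every gene of at least 1 count tested there were 2 lower at passage 2, 6 lower at day 28 (median 0.036), 16 higher for WT differentiation (median 0.0427), 16 and 4 for dKO differentiation (median 0.142), 14 higher for dKO passage, 2 lower for the differentiation interaction (median 0.103) and 5 lower for the passage interaction. Of the 34982 genes then tested, 264 were lower at passage 2 and 4552 lower at day 28. For WT differentiation 3950 of these were higher (median 0.16), and for dKO differentiation 1095 were higher and 1214 lower (median 0). For dKO passage 1466 were higher. The differentiation interaction had 2171 lower (median -0.0299) and the passage interaction 1818. With the compared samples only there were 6 lower at passage 2, 27 lower at passage 4, 9 and 1 at day 28, 15 and 27 for WT differentiation, 4 and 0 for dKO differentiation, 18 and 15 for dKO passage and 5 higher for the differentiation interaction. Over all 13454 genes, 361 were then lower at passage 2 (133 in the main fit) and 3794 at passage 4 (3267). Higher and lower were 2979 and 2951 at day 28 (main fit 3695 and 3592). They were 3679 and 3649 for WT differentiation (3128 and 3084) and 185 and 305 for dKO differentiation (580 and 706). For dKO passage they were 1845 and 2251 (1124 and 1511), and 1817 were higher for the differentiation interaction (2109). With pseudogene counts added there were 1 and 2 at passage 2, a median of -0.112 for WT differentiation, 4 higher for dKO differentiation (median 0.0643) and 2 lower for the differentiation interaction. Of all 13386 genes then tested, 241 were higher and 134 lower at passage 2. For dKO differentiation 568 were higher (median 0.0138), and 1935 were lower for the differentiation interaction. The all-gene median for WT differentiation was 0.0372. With the GC and length correction there were 11 lower at day 28 (median 0.00768), 14 higher for WT differentiation (median 0.0308), 3 lower for dKO passage, 5 and 2 for the differentiation interaction (median 0.069) and 0 lower for the passage interaction. The all-gene median moved from 0.0026 to -0.0553 at day 28 and from 0.038 to 0.101 for WT differentiation. For the differentiation interaction it moved from -0.00206 to -0.109. All genes lower at day 28 went from 3592 to 4055, and all genes higher for WT differentiation from 3128 to 3531. For dKO passage, all genes lower went from 1511 to 1335. DESeq2 gave 9 higher at day 28, 1 lower for dKO differentiation and 0 lower for the differentiation interaction. Of all 13454 genes it called 3103 higher, 602 lower and 1546 lower in that order, against 3695, 706 and 1935 in the main fit. Without the passage 2 libraries 1 was lower at day 28, where 3560 of all 13454 genes were lower (3592 in the main fit).

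With passage 4 NPCs in place of passage 2, 0 were higher for WT differentiation (median -0.1) and 6 lower for dKO differentiation (median 0.0635), and log2 fold changes reversed for RPS26 (-0.505 in WT, -0.641 in dKO), RPL26L1 (-0.371), RPL22L1 (0.225) and RPL10 (-0.161) in WT, and RPS27 (-0.255) and RPS7 (-0.0196) in dKO. The mean share of members without mitochondrial genes was 3.996%, 3.606%, 3.692% and 4.112% in WT and dKO at passage 2 and WT and dKO at day 28, and 4.266%, 3.888%, 3.678% and 4.12% with pseudogenes. Ranked by coding length, RPS12, RPS27, RPS2 and RPL7A were 46, 8, 31 and 30.

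Leaving out 1 library at a time gave 0 to 0 higher, 0 to 2 lower and medians of -0.105 to -0.0531 at passage 2. It gave 4 to 9, 6 to 19 and -0.281 to 0.0225 at passage 4, and 5 to 17, 0 to 6 and 0.0787 to 0.1 at day 28. For differentiation it gave 4 to 6, 9 to 12 and -0.115 to -0.0377 in WT, and 4 to 12, 0 to 4 and 0.0578 to 0.126 in dKO. For passage it gave 7 to 14, 2 to 9 and -0.0822 to 0.189 in WT, and 4 to 9, 0 to 2 and -0.0927 to 0.0808 in dKO. The interactions ranged over 4 to 16, 0 to 3 and 0.154 to 0.199 (differentiation) and 2 to 5, 0 to 4 and -0.164 to 0.0741 (passage). The medians of -0.0822 and 0.0741 were those without WT passage 4 replicate 1. Leaving out a library also changed how many of all genes were called, so these ranges do not describe the members alone.

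With the replicate number as a block, 0 members were higher and 1 lower at passage 2, 7 and 18 at passage 4 and 15 and 4 at day 28, and no count moved by over 1.5 times. Same-numbered libraries shared only a number (correlations of their deviations -0.0555 to 0.182 over 15 pairs). Of 2027 values of single named genes, 1815 kept direction and side of the threshold, 169 lost a call, 36 gained one and 7 reversed. The passage 2 comparisons rest on the lowest depths.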
